A study of Rattus norvegicus with 88 samples.

Results

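Immediate early genes are transcribed within minutes of neuronal firing, without new protein synthesis, from promoters that calcium and growth factor signals reach through factors such as CREB and the serum response factor. Most encode transcription factors, and others act at the synapse or limit the kinase signals that induced them. In the cortex their transcripts are widely used as a record of recent neuronal activity.

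The 10 genes described here are Fos, Fosb, Junb, Egr1, Egr2, Egr4, Nr4a1, Npas4, Arc and Dusp1, chosen as a list of classical immediate early genes and found by their Ensembl identifiers. All 10 had a row among the 17123 genes of the table. Fos (ENSRNOG00000008015), Fosb (ENSRNOG00000046667) and Junb (ENSRNOG00000042838) encode subunits of the AP-1 transcription factor. Egr1 (ENSRNOG00000019422), Egr2 (ENSRNOG00000000640) and Egr4 (ENSRNOG00000015719) encode zinc finger factors of the early growth response family. Nr4a1 (ENSRNOG00000007607) encodes an orphan nuclear receptor and Npas4 (ENSRNOG00000020009) a neuron-specific factor that responds to calcium influx. Arc (ENSRNOG00000043465) encodes a protein that acts in dendrites on AMPA receptor trafficking, and Dusp1 (ENSRNOG00000003977) a phosphatase that inactivates MAP kinases.

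RNA-Seq of polyA RNA was done on bilaterally dissected orbitofrontal cortex from adult heterogeneous stock (HS) rats, an outbred stock derived from 8 inbred founder strains. The rats had no behavioral or drug treatment and lived in groups. The table held 80 rats, 41 labelled male and 39 labelled female, in rat batches 2 (11 males and 4 females), 3 (10 and 12), 4 (12 and 14), 5 (1 female) and 6 (8 and 8). Libraries are named by sex and a number in accession order, which pairs no rats. The methods of the study give the totals of the sexes, before libraries were removed, the other way round from the labels, so each direction by sex rests on the labels. The labels do not say what a rat batch marks.

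Values are normalized counts, which the authors deposited as log2 after an upper quartile scaling and a pseudocount of 1. No gene lengths were used, so the counts of different genes are not compared with each other. Recovered depth lay between 5.67 and 25.6 M reads a library, where M stands for mega. The lowest value of any of these genes in any library rested on 30 recovered reads. In whole tissue, fewer cells that express a gene and less RNA per cell cannot be told apart. No table used here pairs other identifiers with names, so the labelled tissue was not checked against cell type markers.

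The windows of 250 bases before the annotated start were searched on both strands for elements known from activity-regulated promoters. In the RefSeq promoter table of build GRCr8, 8 of the 10 genes had an entry, and Fos and Arc had none. The letters searched were TGACGTCA (the cAMP response element), TGACG (here its short site, which the full element holds on each strand), TGAGTCA (an AP-1 site), GCGTGGGCG (an EGR site) and the CArG box bound by the serum response factor. A short site was present in 6 of the 8 windows and in 18.2% of the 33469 windows of the table. The full cAMP response element was present in 1 of 8, that of Dusp1, against 1.59% of all windows. The CArG box was present in 2 of 8, those of Egr1 and Egr2, against 1.50%. The AP-1 site and the EGR site were in 0 of 8, against 4.05% and 0.478%. Fosb and Npas4 held 0 of the 5 elements in these windows. A match of letters is a description of the window and no evidence of binding.

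Of the windows with several elements 4 are shown, in the direction of transcription and ending at the base before the start, with matches in capitals. That of Egr1, with 2 CArG boxes and 2 short sites, is not shown. Egr2 lies at chr20:21054442-21054691 on the minus strand, and its capitals mark a CArG box 83 to 74 bases before the start and a short site 66 to 62 bases before it. Egr4 lies at chr4:119607818-119608067 on the minus strand and has 2 short sites. Nr4a1 lies at chr7:134259888-134260137 on the plus strand and has 4 short sites. Dusp1 lies at chr10:17184603-17184852 on the plus strand, with the full element 124 to 117 bases before the start and a further short site upstream.
Egr2: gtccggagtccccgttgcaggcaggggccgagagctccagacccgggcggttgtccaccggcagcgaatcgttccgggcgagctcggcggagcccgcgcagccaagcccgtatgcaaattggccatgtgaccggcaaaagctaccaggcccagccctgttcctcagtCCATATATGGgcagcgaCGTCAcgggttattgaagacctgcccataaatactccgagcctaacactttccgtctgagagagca
Egr4: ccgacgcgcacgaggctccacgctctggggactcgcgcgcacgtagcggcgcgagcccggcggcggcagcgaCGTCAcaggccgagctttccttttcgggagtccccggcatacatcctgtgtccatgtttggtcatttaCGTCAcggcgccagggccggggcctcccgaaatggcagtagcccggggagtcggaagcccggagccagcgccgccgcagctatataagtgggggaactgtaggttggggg
Nr4a1: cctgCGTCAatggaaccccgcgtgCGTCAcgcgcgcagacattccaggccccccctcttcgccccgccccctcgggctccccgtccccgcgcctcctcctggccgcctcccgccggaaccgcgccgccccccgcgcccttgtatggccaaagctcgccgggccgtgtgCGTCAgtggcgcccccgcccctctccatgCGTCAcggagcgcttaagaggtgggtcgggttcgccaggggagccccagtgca
Dusp1: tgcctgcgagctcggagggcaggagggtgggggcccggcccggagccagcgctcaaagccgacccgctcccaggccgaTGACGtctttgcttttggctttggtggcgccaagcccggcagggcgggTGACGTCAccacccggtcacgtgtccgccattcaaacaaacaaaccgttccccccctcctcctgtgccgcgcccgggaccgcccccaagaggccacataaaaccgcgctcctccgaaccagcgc

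All 10 transcripts were present in every rat, and their levels differed widely from rat to rat. Fos ranged from 56 normalized counts to 3116, with a median of 1498 (n = 80). Its partner Junb ranged from 409 to 6786 with a median of 3386. The other Fos family member, Fosb, had a lowest value of 160, a median of 1100 and a highest value of 1902. Most rats lay near the median and the extremes were on the low side, where the lowest Fos library stood 55.6-fold under the highest.

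Among the Egr genes, Egr2, known in the cortex as an activity-induced factor and elsewhere for its part in myelination, had the widest range. It ran from 30 to 2894 normalized counts with a median of 1384, a ratio of 96.5. Egr1, also called Zif268, ran from 2107 to 19258 with a median of 10806, a ratio of 9.14 and the narrowest of the 10. Egr4 lay between 206 and 3855 with a median of 1694. The 3 family members therefore differed in how far apart rats were, although the same library was lowest in each.

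Arc, whose RNA is carried into dendrites, ran from 333 to 23061 normalized counts with a median of 10922, a ratio of 69.3. Npas4, which is induced by calcium entry and by few other stimuli, ran from 72 to 2667 with a median of 894. Nr4a1 lay between 617 and 9419 with a median of 4958. Dusp1 lay between 506 and 5822 with a median of 2761. These genes too had the same lowest library as the others.

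One library, male 28 of batch 6, was the lowest of 80 in all 10 genes. Its depth of 18.4 M was near the median of 18.1 M, and 613 of the 17123 genes were at 0 in it, within the range of 283 to 1628 over the libraries. On the first principal component of the whole matrix it had the lowest value of the 80 libraries (-0.176), with male 7 next (-0.159). Without male 28 the lowest Fos value was 183. The ratio of highest to lowest then fell to 13.5 for Arc, 20.5 for Npas4, 39.6 for Egr2 and 5.36 for Egr1. In the same batch, female 14 and male 7 were among the 8 lowest in 9 of the 10 genes. Npas4 was the exception, at 854 and 1023 normalized counts. Of batch 3, female 9 and male 4 were among the 8 lowest in 8 genes. At the other end, female 15 of batch 2 was among the 8 highest in 9 genes and the highest of all in 3. What set these rats apart was not tested.

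**Figure D1:**
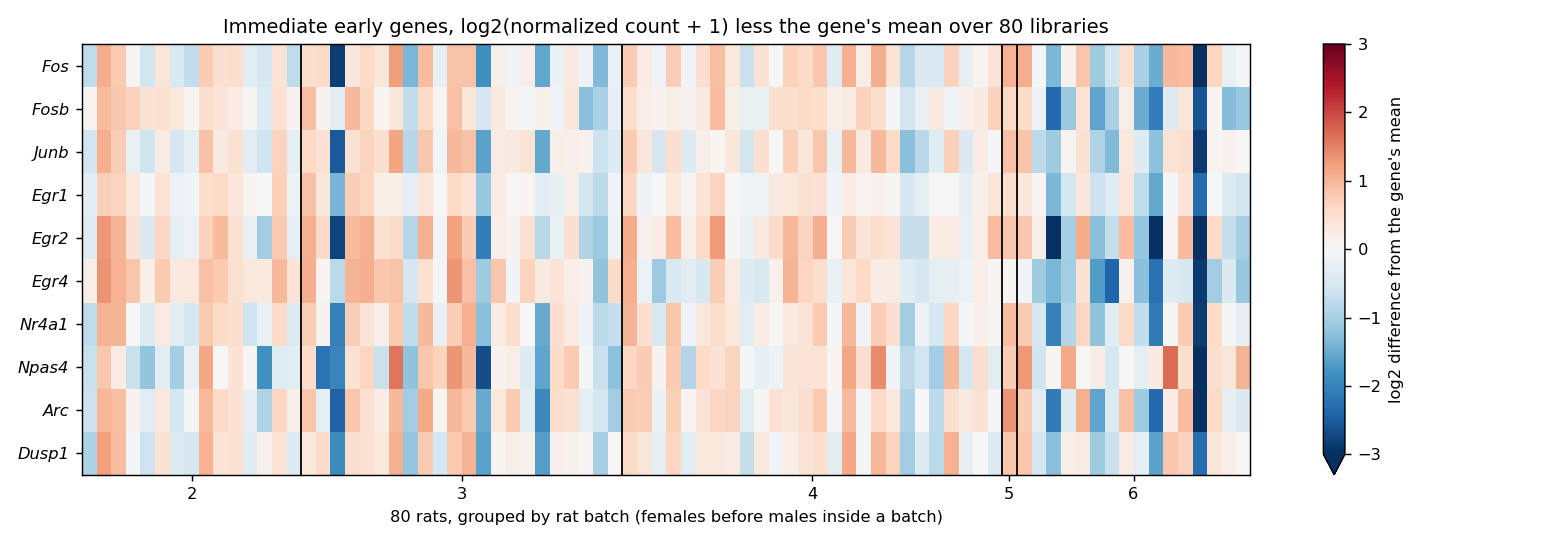
Each column is 1 of the 80 rats, ordered by rat batch and inside a batch with females before males, and each row is a gene. Colour gives log2(normalized count + 1) less the gene's mean, and the darkest blue also stands for values beyond the scale, so that vertical stripes are rats in which the 10 genes were high or low together, and the darkest stripe in batch 6 is male 28, lowest in all 10 genes.

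The spread among rats was measured as the residual SD of the log2 values after sex and rat batch were removed. It was 1.08 for Egr2, 0.95 for Npas4, 0.93 for Arc and 0.91 for Fos. The middle of the list was Junb at 0.77, Nr4a1 at 0.76 and Dusp1 at 0.75. Egr4 had 0.64, Fosb 0.58 and Egr1 0.49. The median of the 10 was 0.76, against 0.20 over the 14803 genes whose mean log2 value was 3 or more. A residual SD of 1.08 is a factor of 2.11 per SD and one of 0.49 a factor of 1.40. Between 86.2% of these genes (for Egr1) and 98.2% (for Egr2) had a smaller SD. Without male 28 the SD was 0.96 for Egr2, 0.86 for Npas4, 0.80 for Arc, 0.78 for Fos and 0.45 for Egr1, and the median of the 10 was 0.72.

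Low counts inflate the SD of log2 values, so each gene was also set beside genes within 0.5 of its own mean on the log2 scale. For Junb 0 of 1066 such genes had a larger SD, and for Nr4a1 0 of 704. Dusp1 was exceeded by 2 of 1286, Egr2 by 3 of 2118, Fos by 4 of 1970 and Npas4 by 6 of 2341. Egr4 was exceeded by 4 genes (0.218%), Arc by 5 (1.96%), Egr1 by 7 (3.12%) and Fosb by 10 (0.434%). The median SD of genes at these levels was 0.12 to 0.15. These are descriptions of the spread, with no test.

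**Figure D2:**
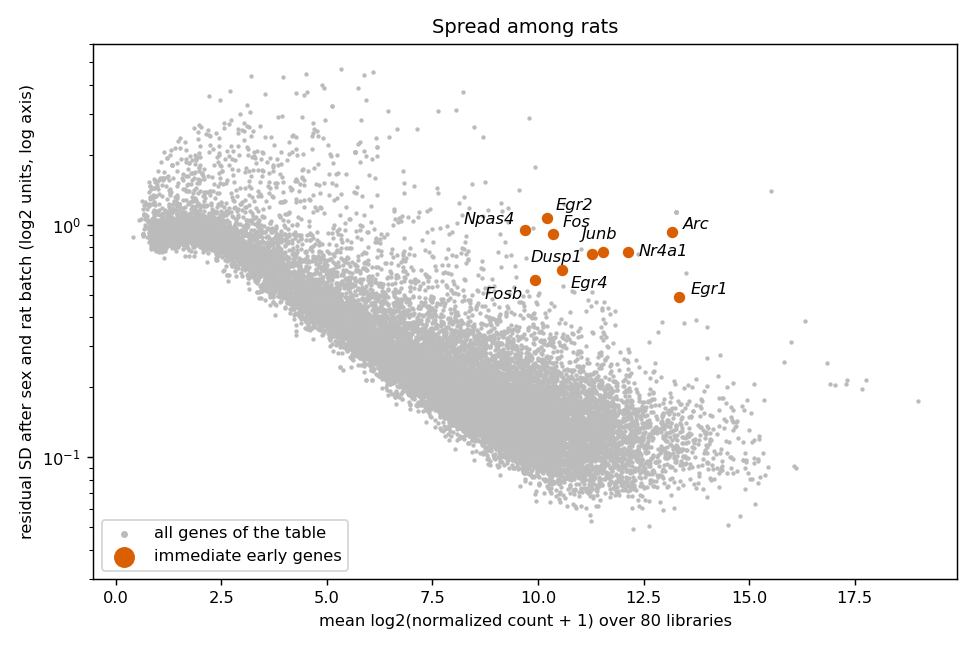
Each point is a gene, with its mean log2(normalized count + 1) over 80 libraries on the horizontal axis and its residual SD after sex and rat batch in log2 units on a vertical log axis. The 10 immediate early genes, in orange, lie between 0.49 (Egr1) and 1.08 (Egr2), above nearly all grey points of the same mean.

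The width of the spread was itself unequal between batches. With sex removed, the SD of Egr2 was 0.66, 1.01, 0.49 and 1.95 in batches 2, 3, 4 and 6. Arc followed the same order, with 0.61, 0.99, 0.45 and 1.56. In batch 6 without male 28 these SDs were 1.65 and 1.13. All 10 genes had their widest SD in batch 6. Without male 28, batch 3 was the widest for 4 of them. Npas4 then had 0.66 in batch 6 and 1.19 in batch 3, Fos 0.91 and 1.01, Junb 0.72 and 0.91, and Dusp1 0.77 and 0.84. Over the 14803 better expressed genes the median SD was 0.19 to 0.21 in each of the 4 batches. Equality of these SDs was not tested.

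The comparison of rat batches asked whether the levels of the 10 genes differed between batches 2, 3, 4 and 6, with sex as a covariate (79 rats, moderated F test of limma). By this test 6 of the 10 genes differed, beside 64.7% of all genes, so the count alone is no mark of these genes. Those 6 were Egr4, Fosb, Egr1, Egr2, Arc and Nr4a1. Fos, Junb, Dusp1 and Npas4 did not pass (limma adjusted p = 0.217 to 0.453).

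With sex as the covariate Egr4 had the widest span of batch means. Its normalized counts had a median of 2067 in batch 2 (range 1703 to 3855) and 2020 in batch 3 (range 648 to 3763). Batch 4 had a median of 1443 (range 710 to 3138), and batch 6 one of 722 (range 206 to 2016). The batch means spanned 1.73 on the log2 scale (limma adjusted p = 7.08e-10). With the position of a rat in the table, as 1 of 3 stretches of columns, as a further term its span was 1.16 (limma adjusted p = 0.000463), under that of Egr2 (1.66) and Arc (1.19). The batches overlapped, but the median of batch 6 was near the lowest rat of batch 4 and under every rat of batch 2.

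Fosb was low in batch 6 as well. Its medians in batches 2, 3 and 4 were 1276 (range 750 to 1870), 1043 (range 409 to 1902) and 1136 (range 653 to 1862), against 474 in batch 6 (range 160 to 1418). The first 3 batches lay close together and batch 6 stood under them, with a span of 1.27 between batch means (limma adjusted p = 1.22e-07). Egr2 had medians of 1584, 1486, 1484 and 720 in batches 2, 3, 4 and 6, and its span was 1.26 (limma adjusted p = 0.00325). Egr1 had medians of 13015, 11214, 11056 and 7956, with a span of 0.76 (limma adjusted p = 0.00059).

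Arc and Nr4a1 passed the test by less. Arc had medians of 10310, 11095, 11906 and 7168 in batches 2, 3, 4 and 6 (limma adjusted p = 0.0379), and Nr4a1 had 4468, 5126, 5348 and 3608 (limma adjusted p = 0.0466). Without male 28 both calls were lost (limma adjusted p = 0.147 and 0.155). Of 79 models that each left out 1 library, Arc lost its call in 5 and Nr4a1 in 28. By contrast Npas4 was not low in batch 6, with medians of 669, 926, 1092 and 993. The single rat of batch 5, female 18, had the highest Arc value of all (23061) and took no part in the test.

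**Figure D3:**
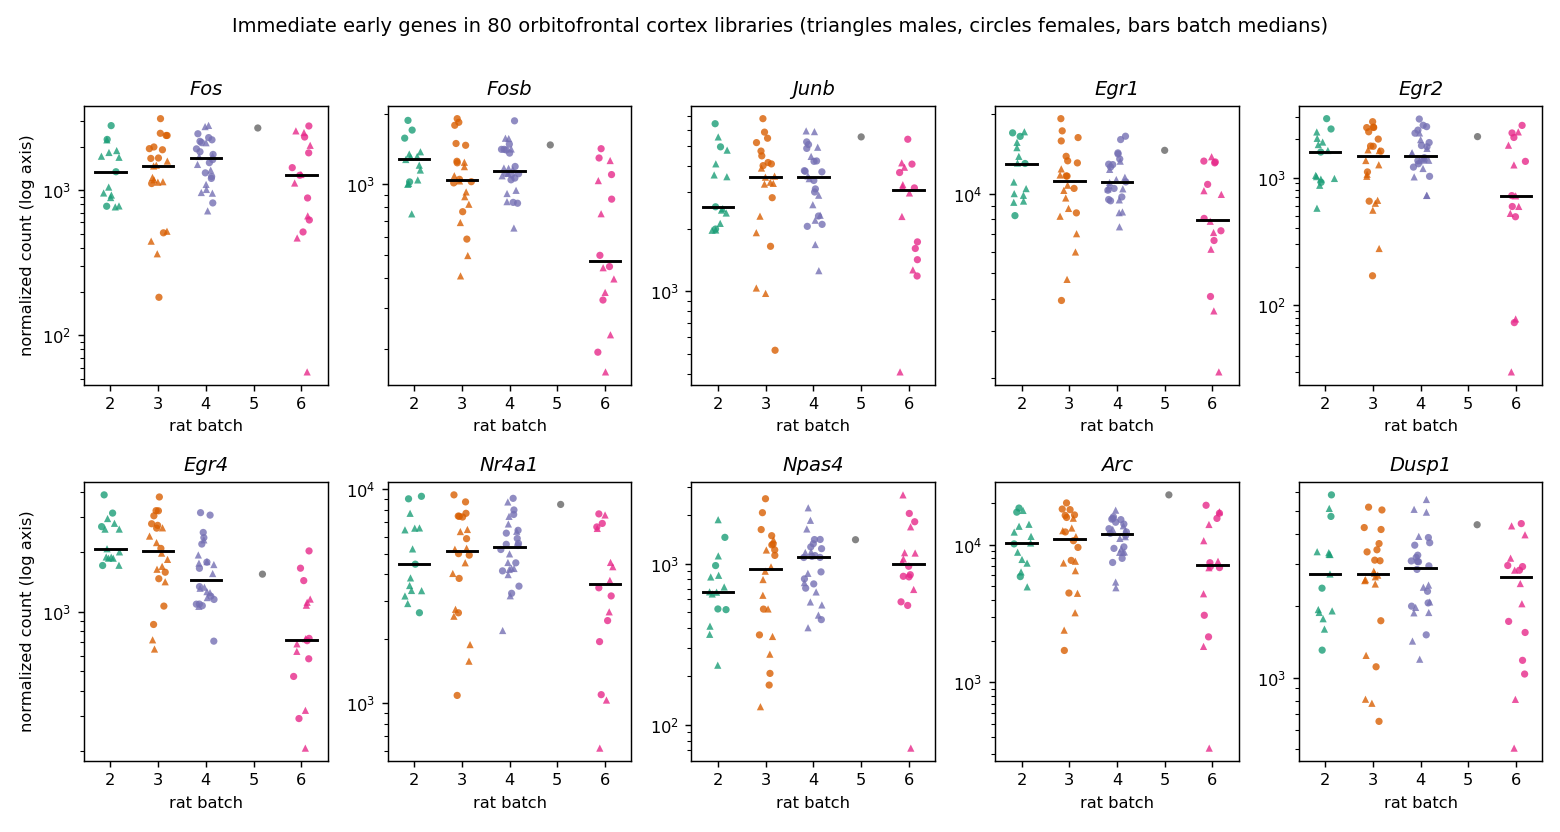
Each panel plots the normalized count of a gene (log axis) against rat batch, with triangles for males, circles for females and a bar at the batch median. Batch 6 has the lowest medians for Egr4 (722), Fosb (474), Egr2 (720) and Egr1 (7956), while its Npas4 median (993) lies between those of batches 3 and 4.

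Of the pairs of batches, that of 6 and 4 had the largest share of the 10 genes called relative to the share of all genes called. All 10 estimates were lower in batch 6, with a median difference of -0.62, beside a median of 0.01 over all genes, of which 46.6% were lower. By limma 6 of the 10 were called, all lower in batch 6, beside 13.6% of all genes called and 7.49% called lower. Egr2 fell by 1.25 in log2 units (SE 0.33, limma adjusted p = 0.00645), Egr4 by 1.08 (SE 0.20, limma adjusted p = 0.000151) and Fosb by 1.08 (SE 0.18, limma adjusted p = 3.56e-05). Arc fell by 0.82, Nr4a1 by 0.67 and Egr1 by 0.54. Npas4 differed by -0.05 with an SE of 0.29 (limma adjusted p = 0.938).

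Without male 28 there were 4 called genes, Egr2, Egr4, Fosb and Egr1, beside 9.77% of all genes, and 9 of 10 estimates were lower with a median of -0.48. The columns of the table run in 3 stretches of ascending rat identifiers, and batches 4 and 6 both lie wholly in the third. Inside that stretch alone 5 genes were called, beside 13.7% of all genes, with Arc at a limma adjusted p of 0.0597 and Nr4a1 at 0.0490. With the stretch as a further term 6 were called, beside 15.1%.

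Between batches 6 and 2, 6 of 10 were called, all lower in batch 6, beside 53.8% of all genes called and 26.6% called lower. The median of the 10 estimates was -0.70, larger in size than that of batches 6 and 4, beside 0.01 over all genes. Without male 28 the calls were 4, beside 52.2%, with Arc and Nr4a1 lost (limma adjusted p = 0.102 and 0.105). Between 6 and 3 there were 4 (Egr4, Fosb, Egr1 and Egr2), all lower in batch 6, beside 50.9% called and 25.1% called lower. Without male 28 the calls were 2, Egr4 and Fosb, beside 49.3%, with Egr1 and Egr2 lost (limma adjusted p = 0.0705 and 0.106). Between batches 4 and 2 the single call was Egr4, which fell by 0.65 (SE 0.20, limma adjusted p = 0.00566), beside 48.6% of all genes called and 24.1% called lower. With the column stretch as a further term the Egr4 difference was -0.09 (SE 0.46, limma adjusted p = 0.938), 0 of the 10 were called or had an unadjusted p under 0.05, and 4.58% of all genes were called. Between 3 and 2, 0 were called beside 9.79%, although all 10 estimates were lower in batch 3. Inside the first stretch, which holds 14 rats of batch 2 and 7 of batch 3, the differences were 0.45 to 1.26 in size and 0 of the 10 were called, beside 1.94% of all genes. There 9 of the 10 had an unadjusted p under 0.05, and the smallest adjusted p was that of Dusp1 (limma adjusted p = 0.0617). The share of all genes under that unadjusted p is not given here. The 10 genes move together, so the 9 are not independent results. The Fos medians in that stretch were 1515 in batch 2 and 1113 in batch 3. Only the Npas4 medians ran the other way, 693 in batch 2 and 1217 in batch 3. Of the 7 rats of batch 3 in that stretch, female 9 and male 4 were among the 8 lowest of the table in 8 genes, and male 14 in 6. Between 4 and 3, 0 were called beside 42.9%. Over all stretches, Egr1 between 3 and 2 was the only gene of the 10 in these last pairs of batches with an unadjusted p under 0.05 (limma adjusted p = 0.183).

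Batches 2 and 4 share no stretch of columns, and neither do batches 2 and 6, while 3 rats of batch 3 lie in the stretch of batch 6. With the stretch as a further term 0 of the 10 were called by limma between batches 6 and 2, beside 9.84% of all genes. There 4 genes (Egr4, Fosb, Egr1 and Egr2) had an unadjusted p under 0.05. The share of all genes under that unadjusted p is not given here. The estimates were -0.79 for Egr1, -1.66 for Egr2 and -1.19 for Arc, no smaller in size than without the term, and -1.16 for Egr4, which was smaller. Their SEs were wider, 0.37 for Egr1 in place of 0.17 and 0.80 for Egr2 in place of 0.38. Between batches 6 and 3 the same term left 0 called, beside 5.23% of all genes. There 2 genes (Fosb and Egr4) had an unadjusted p under 0.05, again without that share of all genes. The estimates there were -0.77 for Egr4, -0.74 for Fosb, -0.40 for Egr1 and -0.99 for Egr2. Without the term they were -1.35, -0.90, -0.42 and -0.87 in the same order.

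The comparison of the sexes was made on all 80 rats with rat batch as a factor. Fos had a median of 1181 normalized counts in males (range 56 to 2800, n = 41) and 1811 in females (183 to 3116, n = 39). Arc had 8876 in males and 12400 in females. Egr2 had 1178 (30 to 2279) and 1766 (73 to 2894), and Egr1 had 10263 (2107 to 17173) and 12935 (3933 to 19258). The sexes overlapped in every gene, with medians lower in males in these 4. The Egr4 median was instead slightly higher in males, at 1708 against 1651 in females.

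By limma 0 of the 10 genes were called, beside 0.117% of all genes. At an unadjusted p under 0.05 there were 6, Egr1, Fosb, Egr2, Arc, Fos and Egr4, beside 7.14% of all genes. The estimates for males less females ran from -0.60 for Egr2 (SE 0.24, limma adjusted p = 0.549) to -0.24 for Dusp1 (SE 0.17, limma adjusted p = 0.815). The smallest adjusted p was that of Egr1, at -0.34 (SE 0.11, limma adjusted p = 0.315). The median of the 10 estimates was -0.33, beside 0.00 over all genes.

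All 10 genes had a lower mean in males than in females in each of batches 2, 3, 4 and 6, as did 8.47% of all genes. In batch 3 the difference was -0.46 to -0.74, and in batch 4 it was -0.08 to -0.39. The 10 genes moved together from rat to rat, so these are not 10 independent directions. Leaving out any single library left each estimate under 0 and gave 0 calls, with limma adjusted p from 0.109 to 0.925. With 20 principal components of the whole matrix as covariates, 8 of the 10 estimates turned positive and 0 were called. The interaction of sex and rat batch called 0 of the 10 and 0 of all genes by limma, where 451 genes (2.63%) and 0 of the 10 had an unadjusted p under 0.05.

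The rats that were high in 1 of these genes were mostly high in the others. Both values of a pair come from the same library and share its scaling. After sex and rat batch were removed, the 45 pairs had Pearson r from 0.44 to 0.95 over 79 rats, with a median of 0.79. In 20 pairs r was over 0.80 and in 44 over 0.50. Egr1 and Egr2 had the highest r, 0.95 (Spearman rho 0.96), and Fosb and Npas4 the lowest, 0.44 (rho 0.44). In the permutation test (two-sided, 100000 resamples) the Pearson p was 0.00017 for Fosb and Npas4 and 1e-05, the smallest these can give, for the other 44 pairs. For rho it was 5e-05 for Fosb and Npas4 and at most 2e-05 for the others. Without the 2 rats farthest from the median, r was 0.94 for Egr1 and Egr2 and 0.37 for Fosb and Npas4.

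**Figure D4:**
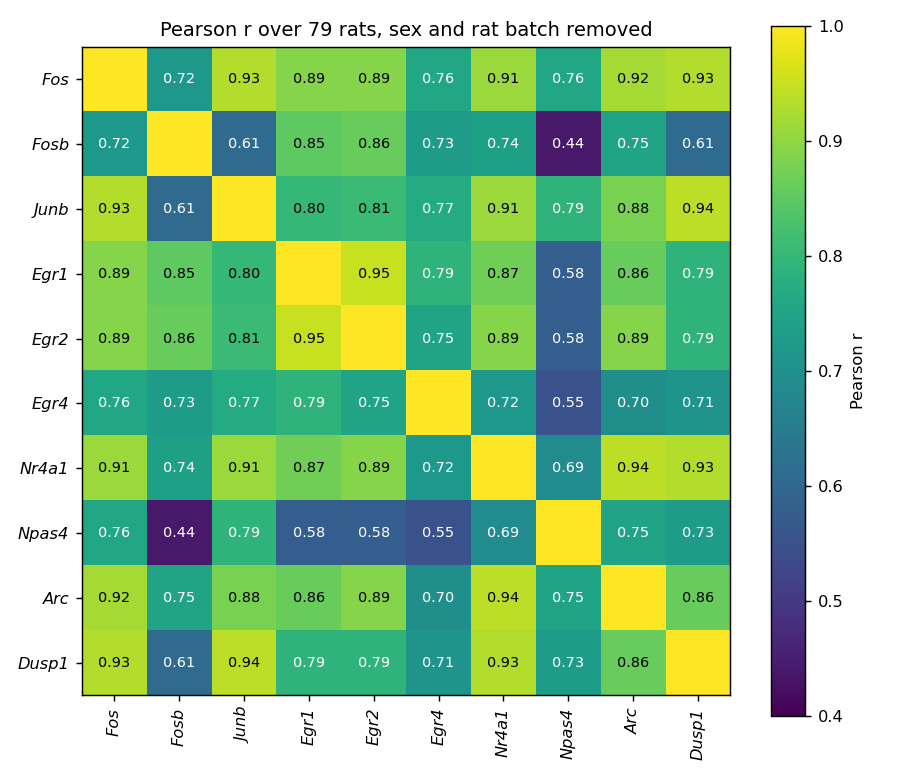
Pearson r of each pair of genes over 79 rats after sex and rat batch were removed, with genes in the same order on both axes and the colour scale running from 0.4 to 1. The brightest cell off the diagonal is that of Egr1 and Egr2 (0.95). The darkest cells are those of Npas4 with Fosb (0.44), Egr4 (0.55), Egr1 and Egr2 (both 0.58).

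Of the AP-1 subunits, Fos and Junb went together (r = 0.93), while Fosb was closer to Egr2 (0.86) and Egr1 (0.85) than to Fos (0.72) or Junb (0.61). Junb and Dusp1 had r = 0.94 and kept the most constant ratio, with an SD of 0.25 for the log2 ratio among rats. Nr4a1 and Arc had r = 0.94. Egr4 was the member of its family least tied to the rest, with its highest r at 0.79 (Egr1). Npas4 was closest to Junb (0.79), Fos (0.76) and Arc (0.75), and its log2 ratio to Egr2 had an SD of 0.94, the largest of the 45.

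**Figure D5:**
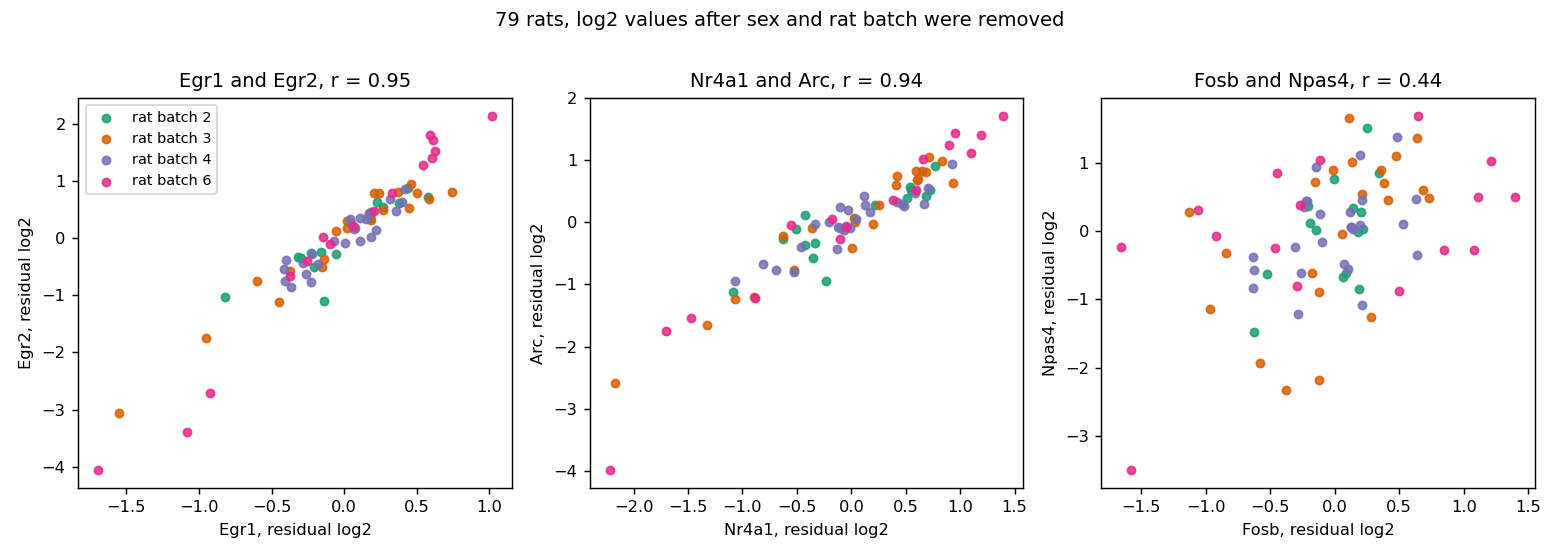
Each point is 1 of 79 rats coloured by batch, with the residual log2 values of a gene on each axis. Egr1 and Egr2 (left, r = 0.95) and Nr4a1 and Arc (middle, r = 0.94) fall on narrow bands, in which the low end is held by rats of batches 3 and 6, and Fosb and Npas4 (right, r = 0.44) form a broad cloud.

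The relations held their sign within each batch, though not their strength. The median r of the 45 pairs was 0.88, 0.80, 0.67 and 0.90 in batches 2, 3, 4 and 6. The lowest r was 0.55, 0.48, 0.30 and 0.46 in these batches, so each was over 0. In batch 6 without male 28 the median was 0.86, but the pairs of Npas4 with Egr2, Egr1, Fosb, Nr4a1 and Arc fell to 0.16, 0.19, 0.21, 0.21 and 0.26. Over all batches without male 28 the pair of Egr2 and Npas4 had r = 0.47, and that of Fosb and Npas4 had 0.35.

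To set the pairs against the whole table, each gene in turn was used as a covariate for all 17122 others in limma, with sex and rat batch in the model. All 9 other members were called with a positive slope for each of the 10 genes, 90 of 90 ordered pairs. The share of all genes called with a positive slope was 0.339% for Npas4, 0.946% for Dusp1, 1.03% for Fos, 1.07% for Arc and 1.09% for Nr4a1. It was 1.40% for Junb, 1.48% for Egr2, 1.62% for Egr1, 1.98% for Fosb and 6.42% for Egr4. The largest adjusted p among the 90 was that of Fosb on Npas4 (limma adjusted p = 0.0152). A unit of log2 Egr1 went with 2.10 units of log2 Egr2 (SE 0.07, limma adjusted p = 1.21e-38), and a unit of Fos with 0.79 of Junb (SE 0.03, limma adjusted p = 1.57e-32). Inside single batches 59, 70, 49 and 76 of 90 were called in batches 2, 3, 4 and 6, and all slopes were positive. The share of all genes called, with either sign, was 0% to 1.22% in batch 2 and 0.0701% to 1.06% in batch 3. It was 0.0409% to 5.41% in batch 4 and 0.0584% to 1.25% in batch 6. In batch 2 alone 0 of the 9 others were called with Fosb or with Npas4 as the covariate. Without male 28 there were 89 of 90, beside 0.298% to 9.50% of all genes called with either sign.

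For each gene the 3 genes of the table with the highest residual r were taken from the 14802 others with a mean of at least 3. For Fos, Junb and Dusp1 all 3 were members of the list. For Egr1 they were Egr2, Fos and ENSRNOG00000004100 (r = 0.88), and for Egr2 they were Egr1, ENSRNOG00000023896 (r = 0.91) and Arc. ENSRNOG00000004100 was also the closest gene to Nr4a1 (r = 0.95), ahead of Arc, and both identifiers were among the 3 closest to Arc. Egr4 had 0 members among its 3 closest genes, and the closest gene to Npas4 (r = 0.80) was no member either. All 9 others were among the 50 closest genes for Fos, Nr4a1, Npas4, Arc and Dusp1, whereas Npas4 was not among the 150 closest for Fosb. The median r over all these genes was between -0.03 and 0.00.

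The covariation was largely of 1 dimension. The first principal component of the 10 residuals, scaled to equal variance, held 81.5% of their variance, and all 10 loadings had the same sign (0.27 to 0.34). The second held 8.06%, with Fosb (0.55), Egr1 (0.29), Egr2 (0.28) and Egr4 (0.21) at one end and Npas4 (-0.57), Junb (-0.28) and Dusp1 (-0.27) at the other end. Without male 28 the shares were 78.9% and 9.52%. Residual log2 depth had r between -0.01 and 0.06 with the 10 genes. The first component of the whole matrix had r between 0.16 (Npas4) and 0.28 with 9 of them and 0.51 with Egr4, where the median absolute r over all genes was 0.22. Before sex and batch were removed, this component was above 0 in every library of the first and second column stretches. It was below 0 in every library of the third. With that component removed the median r of the 45 pairs was 0.79, the same to 2 decimals.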

How the data were processed

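PolyA RNA was sequenced as single-end reads of 100 bases. Per the labels and the study's methods, the authors ran cutadapt, took gene counts from RSEM (Ensembl, Rnor_6.0), rescaled them to the upper quartile with DESeq2, and deposited log2(value + 1). Genes under 100 reads in sum, or without more than 1 read in 25% of the libraries, had been dropped by the authors. Of 88 labelled samples, 8 were removed by the authors and not analysed here.

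Each library's reads were recovered from the step between its whole-number values (99.7% to 100% whole multiples after rounding), giving depths of 5.67 to 25.6 M. The steps ran from 0.733 to 3.51. For a step under 1 every whole number counts as such a multiple, so the share is no check there. Depth sets the precision of low counts, for counting error only. limma 3.58.1 (R 4.3.3, eBayes with a mean trend) was fitted to the log2 values of all 17123 genes, with Benjamini-Hochberg adjustment over all genes and a threshold of 0.05. A difference is on the log2(normalized count + 1) scale. The models were tested on simulated data. Correlations used residuals after sex and rat batch, with 100000 permutations (scipy 1.17.1 and numpy 2.4.6 under Python 3.11.15, with pandas 2.3.3 and, for figures, matplotlib 3.10.9). Rats were chosen to limit kinship, although the study describes some closely related pairs, and p-values here take each rat as independent.

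The 10 genes, the motifs and the tests were chosen with earlier results of these data known. All 10 genes are named. Of the 3 genes of highest residual r for each, members are named and at most 2 identifiers without a name are printed, so not every such gene is given. A list of other activity-regulated genes and lists of cell type markers were not used, because 0 Ensembl identifiers could be matched in the RefSeq gene table of GRCr8. Alternatives were pseudocount, filter, quantile normalization, array weights, voom weights on recovered reads, depth, column stretch, principal components, single batches, single sexes and leaving out libraries.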

Additional observations from a re-analysis of the deposited data

Results flagged for a closer look

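In batch 6, 3 values lay far from the others of their sex by Dixon's ratio of the gap to the range, out of 40 tests in 4 groups of 4 to 10 rats. Fos in male 28 was 5.83 on the log2 scale, 56 normalized counts, where the next of the 8 males had 469. Npas4 in male 28 was 6.19 on the log2 scale, 72 normalized counts, with the next male at 692. Egr2 in female 14 was 6.21 on the log2 scale, 73 normalized counts, and the next of the 8 females had 493. Chance alone flags about 1 in 20 such tests, and the 10 genes move together, so the tests are not independent. The cause was not tested.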

How the results depend on the processing

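The choice to leave out male 28, and the tests inside single column stretches, were added after seeing the data. The number of the 10 genes called for sex was 0 under every alternative. Estimates turned positive only with 20 principal components as covariates. Those estimates were 0.74 for Fos, 0.53 for Junb, 0.25 for Egr1, 1.16 for Egr2, 0.95 for Nr4a1, 0.56 for Npas4, 1.05 for Arc and 0.84 for Dusp1. Their limma adjusted p was 0.744 to 0.929, and the components came from the whole matrix, which holds the 10 genes. Genes of the table called for sex numbered 31 with array weights, 10 with 20 components, 9 in batch 3, 10 in batch 4 and 10 in batch 6, and 15 to 40 with each library left out (40 without female 14), against 20. The 6 genes called for batch became 0 with 20 components and 2 in females only, and 4 to 6 with a library left out. Genes of the table called for batch numbered 3178 with the column stretch as a term, 1 with 20 components, 6156 in females only and 10841 to 11224 with a library left out, against 11078. Arc and Nr4a1 also missed the threshold after quantile normalization, with the stretch term and in each sex alone, and Nr4a1 with voom weights. The interaction called 2 genes with a pseudocount of 10, 1 with array weights and 1 with the stretch term, none of them among the 10. Of the 90 ordered pairs, 59 were called in batch 2 alone, beside 0% to 1.22% of all genes. In batch 4 alone 49 were called, beside 0.0409% to 5.41%. Without the 2 farthest rats 88 were called, beside 0.228% to 13.7%. These shares count slopes of either sign. The median residual SD was 0.544 with 20 components removed, against 0.764. Apart from fewer rats in single batches and sexes, the cause was not tested. No paired analysis was possible because a number in accession order ties no male to a female.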
